A study of Mus musculus with 10 samples.

Results

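The genes described are 10 members of the CXC chemokine system in mouse liver, chosen by name, out of 38922 genes measured. They are 9 ligands (Cxcl1, Cxcl2, Cxcl5, Cxcl9, Cxcl10, Cxcl12, Cxcl13, Cxcl14 and Cxcl16) and the atypical receptor Ackr3, and each was found in the tables by its Ensembl identifier. Total liver RNA was sequenced from 10 wild-type male C57BL/6N mice aged 6 weeks. Acute liver injury was induced in 5 mice by an intraperitoneal injection of CD95-Ab at 0.5 µg/g, which activates the death receptor CD95 (Fas), and the other 5 mice received the same volume of saline. All livers were taken at 6 h and sequenced as separate libraries, 1 per mouse. The controls received saline and not another antibody, and whole liver was used, so every value sums over all cell types of the organ. In such RNA a change in the number of cells of one type and a change in RNA per cell cannot be told apart.

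Chemokines are small secreted proteins that guide leukocytes along concentration gradients by binding G protein-coupled receptors. In the CXC family, the ligands that signal through CXCR2, among them CXCL1, CXCL2 and CXCL5, attract mainly neutrophils. CXCL9 and CXCL10 are induced by interferon-γ and bind CXCR3 on activated T cells and NK cells. CXCL12 is made constantly in many organs, signals through CXCR4 and retains haematopoietic cells, whereas ACKR3 binds CXCL12 and removes it without classical G protein signalling. CXCL13 attracts B cells through CXCR5, CXCL16 is a membrane-anchored ligand of CXCR6, and CXCL14 is expressed mainly by epithelia.

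The counts per mouse summed to between 25965699 and 62097636 in saline-injected mice and between 27480796 and 44962196 in mice injected with CD95-Ab. Values are given as CPM, which are counts per 1e+06 after TMM adjustment of the totals, or as TPM where genes are compared with each other, since TPM is also scaled for transcript length. At these depths 3 counts correspond to between 0.048 and 0.116 CPM before adjustment. Of all genes, 13719 had enough counts to be tested. Levels of 9 hepatocyte genes were read beside the tissue label. Their summed level was 109562 to 134512 CPM in saline-injected mice and 54526 to 93099 CPM after CD95-Ab. None of the 9 was at 0 in every mouse. The same held for the markers of other cell types given below, so it does not by itself show the tissue.

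Livers of mice injected with CD95-Ab had more RNA of 9 of the 10 genes and less of Cxcl12. The largest differences were those of Cxcl2 and Cxcl10, whose mean CPM was 361-fold and 94.3-fold higher, whereas the mean of Cxcl12 was 2.25-fold lower. All 10 passed the filter on low counts, and all 10 were called at an FDR no higher than 0.05, where the FDR is the Benjamini-Hochberg adjusted p of edgeR's quasi-likelihood test over the 13719 genes tested. Of all tested genes, 47.3% were called, 25.4% as higher and 22.0% as lower. Genes rare in controls, such as Cxcl2, Cxcl5 and Cxcl14, passed the filter only through the CD95-Ab group. A fall could thus not have been called for them. A called rise with a log2 fold change of at least 2 was found for 8 of the 10, beside 6.59% of all tested genes, and none of the 10 showed a called fall to -2 or below, which 1.11% of tested genes did. With limma on log2(FPKM + 0.1) the rises of at least 2 numbered 7, as Cxcl5 then came to 1.995. The median log2 fold change of the 10 genes was 3.07, and that of all tested genes was 0.01. In CPM, every mouse injected with CD95-Ab lay above every saline-injected mouse for 8 of the 10 genes (18.6% of tested genes) and below for 1 (14.7% of tested genes). In TPM, the injured livers lay above all controls for 7 of the 10 (10.9% of tested genes) and below them for 0 (14.6% of tested genes).

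**Figure D1:**
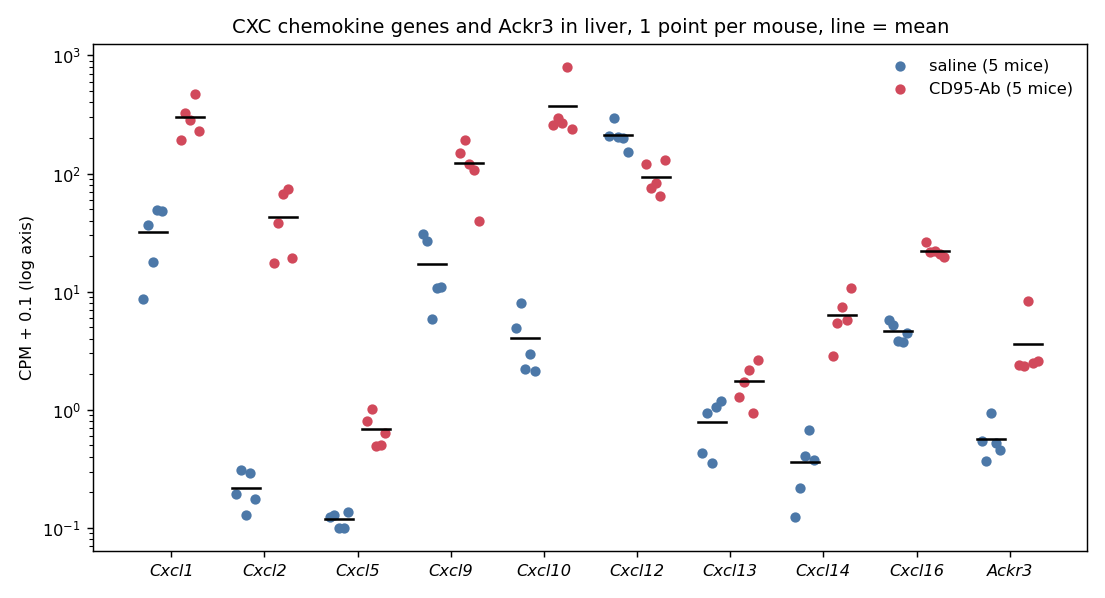
CPM + 0.1 of the 10 genes on a log axis, with 1 point for each of 5 saline-injected (blue) and 5 CD95-Ab-injected mice (red) and a line at each group mean. The saline and CD95-Ab points of Cxcl2, which ran from 0.0282 to 0.208 and from 17.4 to 73.5 CPM before the constant was added, lay farthest apart, while Cxcl12 was the gene with the lower mean after CD95-Ab.

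The DNA just upstream of these genes is shown because neighbouring members that rose together can be compared letter by letter. RefSeq promoters of GRCm38.p6 were matched for 8 of the 10 genes, with no entry for Cxcl5 and Cxcl16. Each sequence is printed 5′ to 3′ on the strand of the gene and ends just before the most upstream annotated start. Capitals mark matches to the NF-κB consensus (κB), to the interferon response consensus (GAAA, any 2 bases, GAAA), to TGANTCA (the AP-1 site) or to TATAAA, each searched on both strands. For the CXCR2 ligands Cxcl1 (chr5:90890995-90891240, plus strand), Cxcl2 (chr5:90903649-90903870, plus strand) and the neighbouring Cxcl3 (chr5:90785851-90786100, plus strand) the sequences were as follows.
Cxcl1: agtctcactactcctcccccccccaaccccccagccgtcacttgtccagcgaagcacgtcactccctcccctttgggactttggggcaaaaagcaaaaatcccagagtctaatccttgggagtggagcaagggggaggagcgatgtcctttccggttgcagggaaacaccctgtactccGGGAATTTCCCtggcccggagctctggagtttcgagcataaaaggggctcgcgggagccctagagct
Cxcl2: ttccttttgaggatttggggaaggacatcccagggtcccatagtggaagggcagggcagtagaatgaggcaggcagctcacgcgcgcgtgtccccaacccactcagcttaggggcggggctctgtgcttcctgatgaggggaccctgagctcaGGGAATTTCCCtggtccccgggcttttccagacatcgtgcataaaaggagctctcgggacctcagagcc
Cxcl3: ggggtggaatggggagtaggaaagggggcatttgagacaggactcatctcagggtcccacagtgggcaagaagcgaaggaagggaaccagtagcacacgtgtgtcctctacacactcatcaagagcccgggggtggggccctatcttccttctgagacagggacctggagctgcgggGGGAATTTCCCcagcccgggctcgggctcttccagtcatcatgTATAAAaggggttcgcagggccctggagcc

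All 3 held the same run GGGAATTTCCC, in which overlapping κB matches on opposite strands begin 1 base apart. Counted from the RefSeq start, the first of these matches began at -71 in Cxcl1, -97 in Cxcl2 and -73 in Cxcl3. Of 32851 RefSeq promoters in windows of 300 bases around the start, 4.51% held a κB match. For the interferon-inducible ligands Cxcl10 (chr5:92348890-92349139, minus strand) and Cxcl9 (chr5:92328080-92328329, minus strand), and for Cxcl12 (chr6:117168285-117168534, plus strand), the only gene of the 10 that fell, the sequences were as follows.
Cxcl10: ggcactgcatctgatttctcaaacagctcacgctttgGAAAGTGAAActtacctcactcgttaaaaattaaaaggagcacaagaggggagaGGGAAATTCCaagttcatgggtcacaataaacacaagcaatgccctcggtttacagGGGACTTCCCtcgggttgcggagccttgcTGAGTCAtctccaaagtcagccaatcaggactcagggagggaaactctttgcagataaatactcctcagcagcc
Cxcl9: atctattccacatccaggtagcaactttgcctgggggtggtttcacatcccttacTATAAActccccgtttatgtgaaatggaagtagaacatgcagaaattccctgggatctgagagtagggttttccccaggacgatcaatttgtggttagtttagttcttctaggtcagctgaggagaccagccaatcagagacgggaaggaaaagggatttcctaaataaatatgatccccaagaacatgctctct
Cxcl12: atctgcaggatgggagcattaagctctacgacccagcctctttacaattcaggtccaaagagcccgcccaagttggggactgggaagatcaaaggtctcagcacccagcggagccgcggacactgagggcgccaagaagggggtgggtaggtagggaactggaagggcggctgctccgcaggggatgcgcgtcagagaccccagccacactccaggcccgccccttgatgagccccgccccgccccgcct

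Cxcl10 held 2 κB matches, at -159 and -103, an interferon response match at -213 and a TGANTCA match at -74. The shares of all promoters with the interferon response consensus and TGANTCA were 3.44% and 7.81%. Cxcl9 held a TATAAA match at -195 and, past its start, a TGANTCA match that is not printed, and 13.6% of all promoters held TATAAA. None of these letter patterns was found in the window of Cxcl12. Over the 8 promoters, κB was matched in Cxcl1, Cxcl2 and Cxcl10, and the interferon response consensus in Cxcl10 and Cxcl14. A match describes the letters and does not show that a factor binds there.

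Among the CXCR2 ligands, Cxcl1 (ENSMUSG00000029380, chr5:90891241-90893115, plus strand) was already well expressed in control liver. Its level was 8.63, 36.2, 17.7, 48.7 and 47.9 CPM in saline replicates 1 to 5. After CD95-Ab it was 193, 328, 283, 468 and 230.3 CPM in replicates 1 to 5. The lowest injured liver thus held several times more Cxcl1 RNA than the highest control liver, and the groups did not overlap. The mean rose from 31.8 ± 18.0 to 300.5 ± 107 CPM (SD, n = 5), and the log2 fold change was 3.24 (SE 0.45, FDR = 1.27e-04).

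Cxcl2 (ENSMUSG00000058427, chr5:90903871-90905938, plus strand), a neutrophil chemoattractant released early by macrophages, was close to the detection limit in control liver. Saline replicates 1 to 5 held 4, 7, 1, 5 and 4 counts, and CD95-Ab replicates 1 to 5 held 541, 1187, 1697, 1821 and 867 counts. In CPM these were 0.0941, 0.208, 0.0282, 0.192 and 0.0742 against 17.4, 37.8, 67.6, 73.5 and 19.2. Every injured liver was far above every control, and among the injured livers replicates 1 and 5 were low and replicates 3 and 4 high. The mean rose from 0.119 ± 0.0776 to 43.1 ± 26.4 CPM (SD, n = 5), with a log2 fold change of 8.55 (SE 0.61, FDR = 1.44e-06). The group totals of 21 and 6113 counts gave a ratio of 354, with a 95% exact interval of 231 to 572 that covers counting error only. Of the 50-base words of its transcripts, 5.84% are shared with Cxcl3, so a small part of its counts depends on how RSEM divided them.

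Cxcl5 (ENSMUSG00000029371, chr5:90759360-90761624, plus strand), which in mice acts on the same receptor, stayed the rarest of the 10 genes. It had 1, 1, 0, 0 and 2 counts in saline replicates 1 to 5 and 22, 29, 10, 10 and 24 counts in CD95-Ab replicates 1 to 5. The groups did not overlap, although the injured livers reached only 0.593 ± 0.223 CPM on average (SD, n = 5). The log2 fold change was 4.64 (SE 0.52, FDR = 2.92e-05), but it fell to 3.08 with a prior count of 2, since controls had at most 2 counts. The summed counts of 4 and 95 gave a ratio of 28.9 with a 95% exact counting interval of 10.9 to 108.

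Among the CXCR3 ligands, Cxcl9 (ENSMUSG00000029417, chr5:92321347-92328079, minus strand) had 30.9, 26.5, 5.80, 10.7 and 10.8 CPM in saline replicates 1 to 5. In CD95-Ab replicates 1 to 5 it had 148, 193, 121, 108 and 39.7 CPM. The lowest injured liver, replicate 5, was only slightly above the highest control, replicate 1, and in TPM these values crossed. The mean rose from 16.9 ± 11.0 to 122 ± 56.5 CPM (SD, n = 5), and the log2 fold change was 2.84 (SE 0.50, FDR = 6.88e-04).

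Cxcl10 (ENSMUSG00000034855, chr5:92346638-92348889, minus strand), named for its induction by interferon-γ and also a target of NF-κB, had 4.82, 7.86, 2.11, 2.85 and 2.02 CPM in saline replicates 1 to 5. In CD95-Ab replicates 1 to 5 it reached 257, 294, 269, 798 and 237 CPM. Of the injured livers 4 lay close together and replicate 4 stood well above them, and no injured liver came near the controls. The mean rose from 3.93 ± 2.47 to 371 ± 239 CPM (SD, n = 5), with a log2 fold change of 6.56 (SE 0.55, FDR = 3.39e-06), which was 6.06 without CD95-Ab replicate 4. Art3 overlaps Cxcl10 on the opposite strand, and had at most 110 counts in any mouse. Cxcl10 itself had 74 to 265 counts in controls and 6754 to 19761 after CD95-Ab.

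Cxcl12 (ENSMUSG00000061353, chr6:117168535-117181367, plus strand), the constitutive ligand of CXCR4, went the other way. Saline replicates 1 to 5 had 208, 295, 204, 201 and 151 CPM, and CD95-Ab replicates 1 to 5 had 119, 75.0, 83.3, 64.0 and 129.8 CPM. All injured livers were below all controls on this scale, by the narrowest margin between CD95-Ab replicate 5 and saline replicate 5. The mean fell from 212 ± 52.1 to 94.3 ± 28.7 CPM (SD, n = 5), with a log2 fold change of -1.17 (SE 0.23, FDR = 0.00132). In TPM the group ranges overlapped, at 62.0 to 183 in saline-injected mice and 26.0 to 77.1 after CD95-Ab, and limma on log2(FPKM + 0.1) gave a difference of -1.16 (adjusted p = 0.00383).

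Ackr3 (ENSMUSG00000044337, chr1:90203980-90216751, plus strand), the scavenging receptor of CXCL12, rose while its ligand fell. Its level was 0.447, 0.267, 0.845, 0.423 and 0.352 CPM in saline replicates 1 to 5 and 2.31, 2.23, 8.16, 2.38 and 2.48 CPM in CD95-Ab replicates 1 to 5. The groups did not overlap, and CD95-Ab replicate 3 was more than 3 times the level of the other injured livers. The mean rose from 0.467 ± 0.223 to 3.51 ± 2.60 CPM (SD, n = 5), with a log2 fold change of 2.90 (SE 0.46, FDR = 3.30e-04), and of 2.33 without that mouse.

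Of the remaining ligands, Cxcl16 (ENSMUSG00000018920, chr11:70453983-70459984, minus strand) had the smallest spread among mice. Saline replicates 1 to 5 had 5.69, 5.16, 3.69, 3.66 and 4.39 CPM, and CD95-Ab replicates 1 to 5 had 26.1, 21.6, 22.1, 20.5 and 19.7 CPM. The injured livers had a coefficient of variation of 11.2% and were all above the controls. Its log2 fold change was 2.28 (SE 0.15, FDR = 9.41e-07). Zmynd15 overlaps it on the opposite strand, shares 16.9% of its 50-base words and had at most 218 counts in any mouse. Cxcl16 had 95 to 242 counts in controls and 509 to 890 after CD95-Ab, so its control level is uncertain.

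Cxcl14 (ENSMUSG00000021508, chr13:56288643-56296551, minus strand) was near the detection limit in controls, with 0.0235, 0.119, 0.310, 0.577 and 0.278 CPM in saline replicates 1 to 5. It reached 2.76, 5.29, 7.25, 5.61 and 10.6 CPM in CD95-Ab replicates 1 to 5. All injured livers exceeded all controls, and the mean rose from 0.261 ± 0.212 to 6.30 ± 2.88 CPM (SD, n = 5). The log2 fold change was 4.65 (SE 0.55, FDR = 3.95e-05).

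Cxcl13 (ENSMUSG00000023078, chr5:95956951-95961068, plus strand) changed least surely. It had 0.329, 0.830, 0.254, 0.962 and 1.08 CPM in saline replicates 1 to 5 and 1.19, 1.62, 2.07, 0.848 and 2.55 CPM in CD95-Ab replicates 1 to 5. CD95-Ab replicate 4 fell within the control range, so the groups overlapped. The log2 fold change was 1.27 (SE 0.42, FDR = 0.0276). The call was lost without CD95-Ab replicate 3 (1.17, FDR = 0.0609), without CD95-Ab replicate 5 (1.05, FDR = 0.0754), without saline replicate 1 (1.08, FDR = 0.0629) and without saline replicate 3 (1.05, FDR = 0.0525).

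Compared per transcript length, the order of the 10 genes differed between the groups. In control liver Cxcl12 was the most abundant, at 121 ± 44.3 TPM (SD, n = 5), followed by Cxcl1 at 51.4 ± 26.4 TPM, and Cxcl12 exceeded Cxcl1 in 5 of 5 mice although the ranges of these genes overlapped. Cxcl9, Cxcl10 and Cxcl16 came next, at 9.70 ± 7.55, 6.33 ± 4.86 and 3.84 ± 1.34 TPM, with overlapping ranges. Cxcl13, Ackr3, Cxcl14, Cxcl2 and Cxcl5 were all under 1 TPM on average. Neighbours in this order had separate ranges only between Cxcl16 and Cxcl13 and between Cxcl2 and Cxcl5.

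After CD95-Ab, Cxcl10 at 446 ± 194 TPM (SD, n = 5) and Cxcl1 at 421 ± 82.4 TPM led the order, and their ranges overlapped. Cxcl9, Cxcl2 and Cxcl12 followed at 57.7 ± 32.5, 52.2 ± 24.5 and 50.3 ± 21.4 TPM and could not be separated from each other. Cxcl16 was at 15.3 ± 4.75 TPM, below Cxcl12 and above Cxcl14 with no overlap. Cxcl14, Cxcl13, Ackr3 and Cxcl5 ended the order, at 4.57 ± 2.12, 1.97 ± 0.835, 1.51 ± 0.967 and 0.506 ± 0.257 TPM.

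The make-up of the summed CXC ligand RNA differed accordingly. Over 15 CXC ligands, the sum was 191, 297, 162, 199 and 136 TPM in saline replicates 1 to 5 and 1034, 1136, 905, 1484 and 818 TPM in CD95-Ab replicates 1 to 5. Cxcl12 made up 60.9% ± 12.2 (SD, n = 5) of this sum in control liver and 5.10% ± 2.73 after CD95-Ab, with no overlap between mice. Cxcl10 made up 2.93% ± 1.50 and 40.3% ± 7.43, again without overlap. The share of Cxcl1 was 26.9% ± 14.2 in controls and 39.6% ± 4.24 after CD95-Ab, and here the ranges overlapped. Cxcl1 and Cxcl10 together accounted for 75.5% to 87.4% of the sum in each injured liver, against 13.4% to 44.6% in controls. The share of Cxcl2 was 0.0876% ± 0.0463 in controls and 4.88% ± 2.39 after CD95-Ab, without overlap. That of Cxcl9 was 4.67% ± 3.30 and 5.43% ± 2.999, and its ranges of 1.97% to 10.1% and 2.29% to 8.58% overlapped over most of their length.

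**Figure D2:**
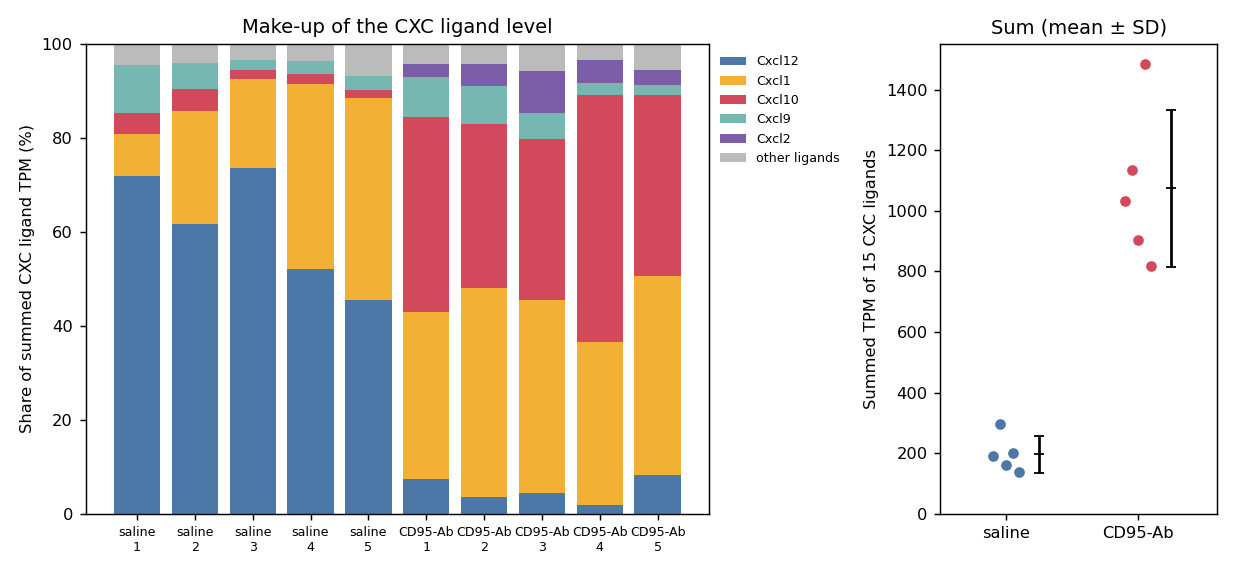
Share of each CXC ligand in the summed TPM of 15 CXC ligands, as 1 stacked bar per mouse (percent, left), and the summed TPM of each mouse with mean ± SD (right). Cxcl12 took 45.5% to 73.5% in the 5 saline-injected mice and 1.75% to 8.31% in the 5 CD95-Ab-injected mice, in which Cxcl1 and Cxcl10 took most of the rest.

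Ratios of counts within a mouse do not depend on how totals are scaled, apart from the added constant. The comparison covered 4 pairs on the scale of log2((count + 1)/(count + 1)). Where counts are few, as for Cxcl2 and Cxcl5 in controls, the added 1 makes the ratio depend on depth. The ratio of Cxcl2 to Cxcl1 was -6.20, -7.26, -8.30, -7.72 and -9.01 in saline replicates 1 to 5 and -3.47, -3.12, -2.06, -2.67 and -3.58 in CD95-Ab replicates 1 to 5. The mean difference of 4.72 means that Cxcl2 rose more than Cxcl1 in these livers (exact two-sided permutation test, p = 0.00794, adjusted p = 0.0106 over 4 pairs, n = 5 per group). This p is the smallest that 5 mice against 5 allow.

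The ratio of Cxcl9 to Cxcl10 was 2.67, 1.75, 1.45, 1.90 and 2.41 in saline replicates 1 to 5 and -0.79, -0.60, -1.16, -2.89 and -2.58 in CD95-Ab replicates 1 to 5. Cxcl9 counts exceeded Cxcl10 counts in every control and were below them in every injured liver (difference -3.64, exact permutation test, p = 0.00794, adjusted p = 0.0106). The ratio of Cxcl12 to Ackr3 was 8.79, 9.96, 7.87, 8.77 and 8.67 in the saline group and 5.67, 5.05, 3.35, 4.73 and 5.70 after CD95-Ab. It was lower in every injured liver (difference -3.91, exact permutation test, p = 0.00794, adjusted p = 0.0106). In CPM, Cxcl12 was already below and Ackr3 above all controls in every injured liver. The separation of this ratio followed from that, so its p adds no support. For Cxcl5 to Cxcl1 the means were -9.23 ± 1.04 and -8.91 ± 0.79 (SD, n = 5), and a difference was not detectable at these counts (0.32, exact permutation test, p = 0.587). Its size was not stable, at 0.75 without saline replicate 1, 0.05 without saline replicate 4, 0.89 with a pseudocount of 0.5 and 1.13 on TPM + 0.01, and it was not called in any of these.

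**Figure D3:**
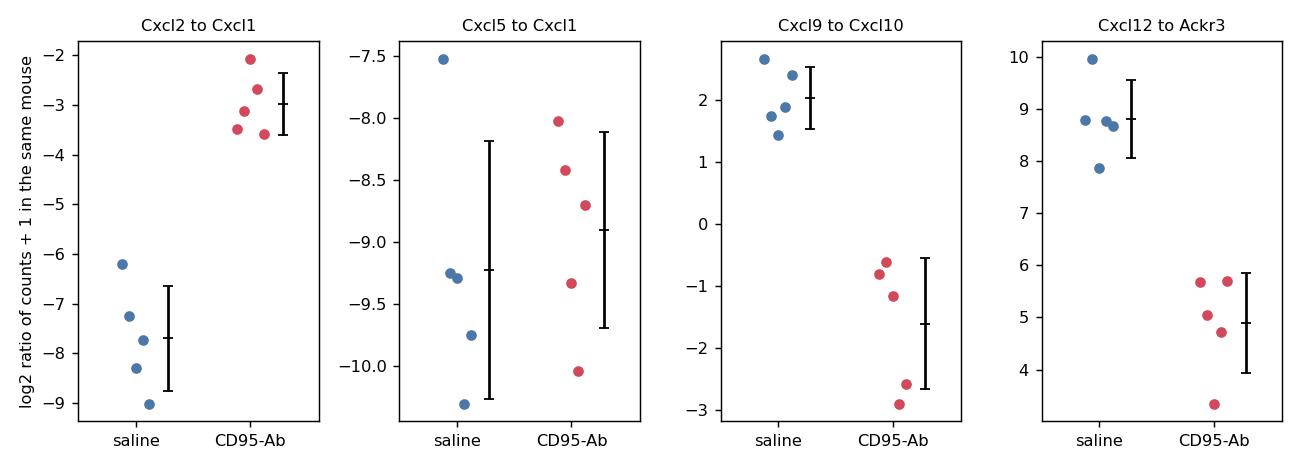
Within-mouse log2 ratios of counts for the 4 pairs, with 1 point per mouse (5 per group) and mean ± SD beside them. The groups were separate for Cxcl2 to Cxcl1, Cxcl9 to Cxcl10 and Cxcl12 to Ackr3, and overlapped for Cxcl5 to Cxcl1.

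The other CXC ligands of the mouse genome were examined beside these genes. Of 6, 4 were tested, and all 4 were higher after CD95-Ab (25.4% of all tested genes were). Cxcl3 could pass the filter only through the injured livers, as its controls had 0 counts. Ppbp, with 8, 29, 1, 7 and 122 counts in saline replicates 1 to 5, did not pass on its controls alone. Cxcl3, a further CXCR2 ligand, had 0 counts in all 5 controls and 0.610, 0.828, 2.23, 1.33 and 0.554 CPM in CD95-Ab replicates 1 to 5, at least 70.9-fold higher than the floor of 3 counts over the saline group (FDR = 2.10e-04). Cxcl11, a CXCR3 ligand that GENCODE lists as a polymorphic pseudogene, had 1.58, 3.62, 1.35, 1.73 and 1.80 CPM in saline replicates 1 to 5 and 7.89, 10.2, 5.33, 48.1 and 9.52 CPM in CD95-Ab replicates 1 to 5. CD95-Ab replicate 4 was highest for Cxcl11 as for Cxcl10, and the log2 fold change of 3.01 (SE 0.59, FDR = 0.00146) was 2.02 without it. The platelet ligands Pf4 and Ppbp had log2 fold changes of 2.58 (SE 0.42, FDR = 3.71e-04) and 3.36 (SE 0.74, FDR = 0.00283), the latter 4.54 without saline replicate 5. All 4 tested platelet markers of 6, which include this pair, were higher, and the list summed to 2.20 to 8.57 CPM in controls and 10.1 to 32.1 CPM after CD95-Ab, and their part in the result was not tested. Of these markers Gp9, at 0.0566 CPM on average in controls, passed the filter only through the CD95-Ab group. For Gp9 and Ppbp the filter thus favoured a rise. Cxcl15 had 0 counts in every mouse, and Cxcl17 had 1 count in 1 mouse.

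Of the 6 signalling receptors of CXC ligands, 3 were tested, and all 3 were higher after CD95-Ab. Cxcr2, the receptor of Cxcl1, Cxcl2 and Cxcl5, had 0.612, 0.682, 0.563, 0.616 and 1.35 CPM in saline replicates 1 to 5 and 4.94, 8.69, 12.9, 9.12 and 13.1 CPM in CD95-Ab replicates 1 to 5, a log2 fold change of 3.64 (SE 0.33, FDR = 6.01e-06) with no overlap. All 7 tested neutrophil markers of 12 were also higher (25.4% of all tested genes were). Summed levels were 15.6 to 62.8 CPM in controls and 1274 to 2829 CPM in injured livers, and Ly6g, Mpo, Elane, Camp and Ltf had too few counts to be tested. Mmp8 and Ngp, at 0.135 and 0.116 CPM on average in controls, passed the filter only through the CD95-Ab group, so their direction was fixed by it. Lcn2, which injured hepatocytes also express, made up 83.6% and 85.9% of the summed means, and the rest of the list came to 3.69 to 9.81 CPM in controls and 105 to 454 CPM after CD95-Ab. The part of these markers in the Cxcr2 and CXCR2 ligand values was not tested. Cxcr4, the receptor of Cxcl12, had 0.847, 0.652, 0.507, 0.385 and 0.927 CPM in the saline group and 5.20, 5.67, 5.37, 9.89 and 6.80 CPM after CD95-Ab. Its log2 fold change was 3.27 (SE 0.28, FDR = 3.59e-06), so ligand and receptor differed in opposite directions between the groups.

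Cxcr6, the receptor of Cxcl16, had a log2 fold change of 1.25 (SE 0.35, FDR = 0.0111), and Fyco1 overlaps it on the opposite strand with up to 1907 counts, so its value is uncertain. Cxcr1, Cxcr3 and Cxcr5 had too few counts to be tested with the filter. The CXCR3 ligands rose while Cxcr3 itself stood at 5 to 17 counts per mouse in controls and 3 to 11 counts after CD95-Ab. With no filter its log2 fold change was -0.23 (FDR = 0.737). Cxcr5, the receptor of Cxcl13, had a value of 1.98 with no filter (FDR = 0.00745) from at most 20 counts per mouse, and Bcl9l overlaps it on the opposite strand with up to 1288 counts, so its value is uncertain.

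Among the atypical receptors, which bind chemokines without classical signalling, Ackr1 was higher with a log2 fold change of 2.65 (SE 0.25, FDR = 6.73e-06). Cadm3 overlaps it on the same strand with up to 182 counts. Ackr1 had 16 to 37 counts in controls and 65 to 218 after CD95-Ab, so its value is uncertain. Ackr2, a scavenger of inflammatory CC chemokines, had a log2 fold change of -1.26 (SE 0.47, FDR = 0.0423). That call was lost when any of CD95-Ab replicates 1, 2, 4 and 5 or saline replicates 3, 4 and 5 was left out, with FDR values of 0.0650 to 0.0955. Ackr4 had a log2 fold change of -1.57 (SE 0.43, FDR = 0.0107), and it lies within Acad11, a gene of up to 10188 counts on the opposite strand. Ackr3 and Ackr1 were thus the atypical receptors with a called rise.

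**Figure D4:**
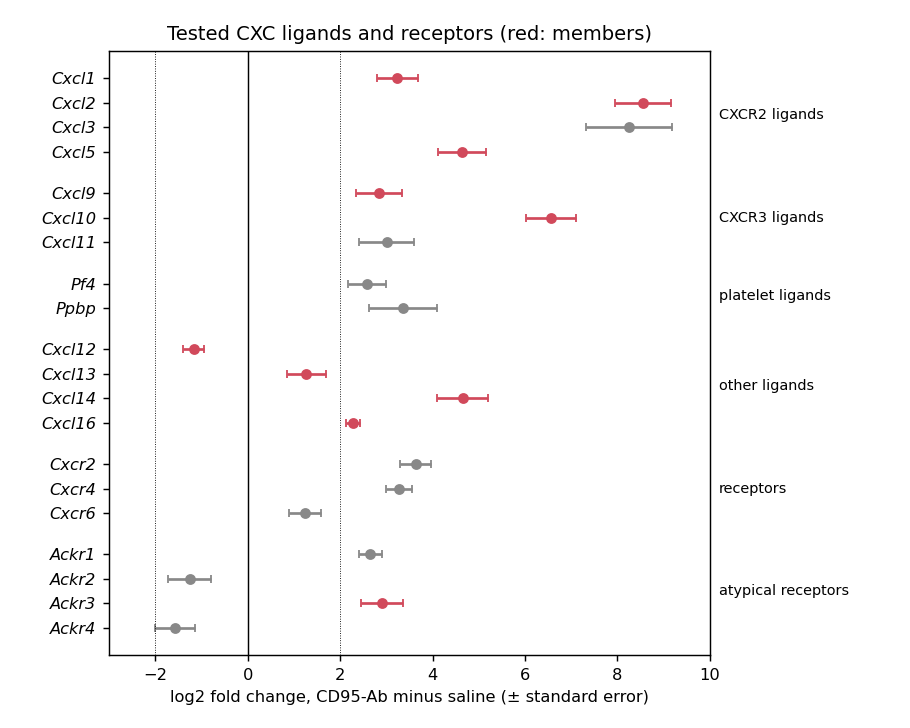
Log2 fold change between CD95-Ab-injected and saline-injected mice (± SE, 5 mice per group) for the tested CXC ligands and receptors, the 10 genes described in red and the others in grey, with dotted lines at 2 and -2. Cxcl2 is highest at 8.55, and Cxcl12 is the ligand below 0. The value of Cxcl3 depends on the prior count, since its controls had 0 counts.

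Genes of the pathways known to act on CXC chemokines were counted next. All 11 genes of an NF-κB list, made up of 5 subunits, inhibitors of the IκB family, Bcl3 and Tnfaip3, were higher (25.4% of all tested genes were), and their median log2 fold change was 2.71, the largest being that of Tnfaip3 (5.29), which encodes an inhibitor of this pathway. Of 10 genes of the interferon-γ axis, 9 were tested and 7 were higher, with a median of 1.13 and the largest for the inhibitor Socs1 (4.95). Socs1, at 0.148 CPM on average in controls, did not pass the filter on its controls alone. Ifng itself had 0 to 5 counts per mouse in controls and 1 to 8 after CD95-Ab and was not tested. Of 13 interferon-stimulated genes, 10 were higher, with a median of 2.09 and the largest for the GTPase Gbp2 (3.53).

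The order of the injured livers differed between these groups. The summed interferon-stimulated genes were 933, 1545, 634, 475 and 443 CPM in CD95-Ab replicates 1 to 5, so that replicate 4, the highest for Cxcl10, was the second lowest here, and control values ran from 135 to 473 CPM. The summed NF-κB genes were 592, 784, 922, 1065 and 640 CPM in CD95-Ab replicates 1 to 5, with replicate 4 the highest. Cxcl9 was highest in replicate 2, as were the interferon-stimulated genes. The relation of these orders to the chemokine values was not tested. Of 6 genes that process chemokines, 4 were higher, with Mmp8 (6.57), a neutrophil collagenase, rising most, and Dpp4 (-0.65), a peptidase that trims CXCL9, CXCL10 and CXCL12, was lower. Mmp8, at 0.135 CPM on average in controls, passed the filter only through the CD95-Ab group. Of 13 genes of chemokine receptor signalling, 10 were higher and none lower, with a median of 0.75 and the largest value for Pik3r5 (2.89). The counts of both lists stand beside 25.4% of all tested genes called higher and 22.0% called lower.

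Markers of the cells that could carry or make these transcripts were counted beside all tested genes, of which 25.4% were higher and 22.0% lower. Sums are given over each whole list. All 7 monocyte markers were higher (summed 1016 to 1371 CPM in controls and 1252 to 2283 CPM after CD95-Ab, Chil3 most at 6.32). These ranges overlap, and Fn1, which hepatocytes also express, made up 95.9% and 82.1% of the summed means, while the rest of the list came to 31.5 to 58.4 CPM and 286 to 488 CPM. Of 10 Kupffer cell and macrophage markers, 2 were higher, a share no larger than that of all tested genes. Marco rose most (2.11), and the sums of the 10 markers, 187 to 625 and 360.4 to 787 CPM, overlapped. Of 10 tested T and NK cell markers, 8 were higher, from 2.34 to 9.29 CPM in sum to 12.0 to 18.4 CPM, with Klrb1c at 2.20. Of 4 tested B cell markers, 3 were higher, with Cd79a at 2.27, and their sums of 0.789 to 3.85 and 2.28 to 14.0 CPM overlapped. Chil3, Cd3d, Cd3e, Cd8a, Ncr1 and Ms4a1 had 0.156 to 0.281 CPM on average in controls. They did not pass the filter on their controls alone, so the filter favoured rises in the counts of their lists.

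Among the resident cells, 7 of 9 stellate cell markers were higher, with summed levels of 230.4 to 301 CPM in controls and 489 to 795 CPM after CD95-Ab, and with Hgf at 2.31. Stellate and endothelial cells are known sources of CXCL12, and their part in the lower Cxcl12 level was not tested. Of 8 sinusoidal endothelial markers, 6 were higher, from 58.8 to 129 CPM in sum to 187 to 371 CPM, with Lyve1 at 3.41. Of 5 tested cholangiocyte markers, 4 were higher, from 18.4 to 33.9 CPM in sum to 48.4 to 186 CPM, with Sox9 at 4.95, and Spp1 made up 86.1% and 50.6% of the summed means. Of 9 hepatocyte genes, 1 was higher (Fgb, 0.87) and 3 were lower, with Alb at -1.03, beside 25.4% and 22.0% of all tested genes. No marker of these lists was at 0 in every mouse, and their part in the chemokine values was not tested.

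Most of the ligands lie in clusters on chromosome 5 (GRCm38), in which protein-coding genes and the polymorphic pseudogene Cxcl11 were counted and other gene types were not. The first runs from Cxcl5 to Cxcl2 (chr5:90759360-90905938) and holds 7 protein-coding genes, all CXC ligands, of which 6 were tested and all 6 were higher. Of these, Cxcl2, Cxcl3, Cxcl5 and Ppbp did not pass the filter on their controls alone, so the filter favoured rises in them. Of the 5 tested flanking genes, 3 were lower, namely Afm (-0.83), 5830473C10Rik (-1.42) and Rassf6 (-1.32), while Mthfd2l had 0.30 (FDR = 0.482) and the growth factor gene Ereg was higher (5.89). The second cluster runs from Cxcl9 to Cxcl11 (chr5:92321347-92365485), and its 4 counted genes, of which Art3 (1.26) is no chemokine, were all higher. Art3 overlaps Cxcl10 and Cxcl11 on the opposite strand and had at most 110 counts in any mouse, so its value is uncertain. Of the tested genes that flank this cluster, Naaa (0.88) and Sdad1 (1.07) were higher and Fam47e (-1.02) was lower. Nup54 and Scarb2 had 0.05 and 0.04 and were not called. The 3 of 10 tested flanking genes called higher stand beside 25.4% of all tested genes, and the difference from the genes inside was not tested.

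**Figure D5:**
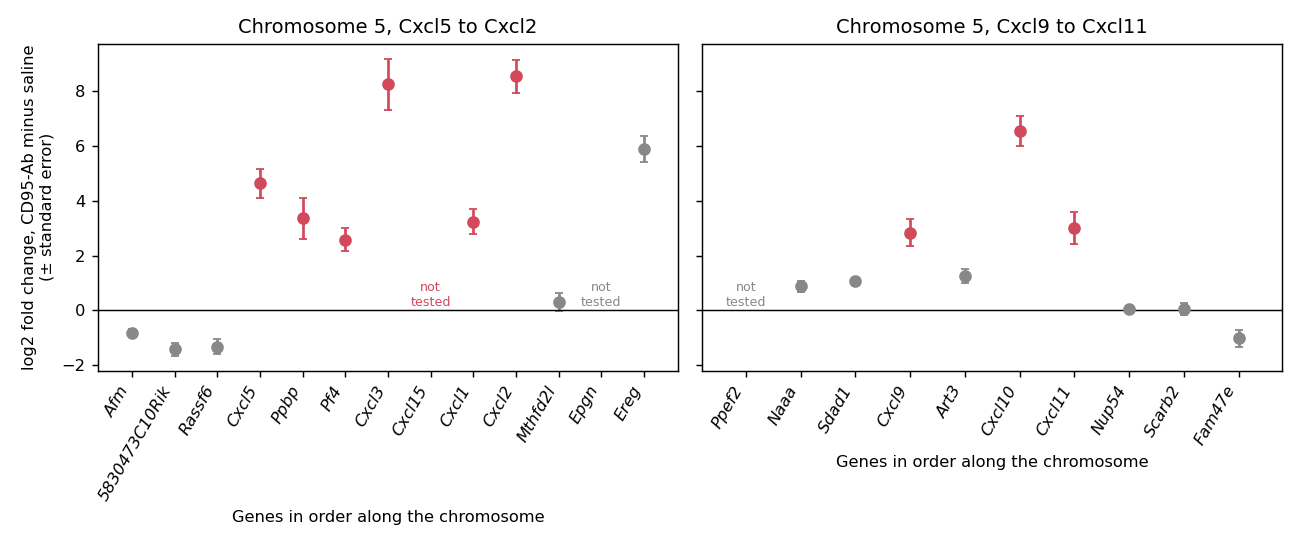
Log2 fold change of each gene in the clusters on chromosome 5 and of 3 flanking genes on each side, in genomic order, ± SE (5 mice per group), CXC ligands in red and other genes in grey, without genes that are neither protein-coding nor Cxcl11. The 6 tested genes from Cxcl5 to Cxcl2 lie between 2.58 and 8.55, and their tested flanking genes between -1.42 and 5.89.

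The genes whose profiles over the 10 mice were most like those of 5 of the chemokines were found by the root mean square difference in log2 CPM relative to the saline mean, among 12494 genes. Nearest to Cxcl1 were Socs3 (0.388), Id3 (0.418) and Btg2 (0.452), and nearest to Cxcl2 were Ccl2 (0.707), Lif (0.799) and Ccl7 (0.815). Nearest to Cxcl9 were Calhm6 (0.414), Slamf9 (0.475) and Ifi47 (0.496), and nearest to Cxcl10 were Acod1 (0.507), Gm26917 (0.571) and Ccl4 (0.583). Lrig3 (0.172), Jade1 (0.183) and AI661453 (0.185) were nearest to Cxcl12. Because profiles are relative to the saline mean, a small difference largely reflects a similar fold change between the groups. It does not by itself show that genes vary together among the mice of a group.

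No single injured liver was highest for all of the genes. CD95-Ab replicate 4 was highest for Cxcl1, Cxcl2 and Cxcl10, and replicate 5 for Cxcl12, Cxcl13 and Cxcl14. Replicate 2 was highest for Cxcl5 and Cxcl9, replicate 1 for Cxcl16 and replicate 3 for Ackr3. The coefficient of variation among injured livers ran from 11.2% for Cxcl16 to 74.0% for Ackr3.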

How the data were processed

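RNA-seq tables of 10 livers were analysed, from 5 saline-injected and 5 CD95-Ab-injected mice grouped by the sample labels. The authors assigned reads to genes with RSEM 1.2.19 and deposited 1 table per mouse. The expected count that the authors deposited is not normalized and was rounded to whole numbers before use. The deposited FPKM is scaled by RSEM for length and depth. The mouse annotation release and build used by the authors, and whether counting used strand, are not given in the sources used here. The methods name a human Gencode release, although the identifiers are mouse Ensembl identifiers. Reads matching several genes were shared out by RSEM, which can shift counts between overlapping genes or paralogs.

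Positions and symbols came from GENCODE mouse release M21 (GRCm38) by identifier, and promoters from RefSeq (GRCm38.p6). Protein features of the chemokines were not analysed here. Genes were kept by filterByExpr (minimum count 10), TMM factors adjusted the totals, and a model with only the group was tested by quasi-likelihood in edgeR 4.0.16 (R 4.3.3). A gene too rare in controls for this filter was kept only if it was higher in the injured livers. Calls needed an FDR no higher than 0.05. TPM were computed from the deposited FPKM. Ratios were compared with exact permutation tests in scipy 1.17.1, and tables were made with Python 3.11.15 and pandas 2.3.3. The code was tested on simulated counts. Alternatives were DESeq2 1.42.0, limma 3.58.1 on log2(FPKM + 0.1), the likelihood ratio test of edgeR, other filters, factors, prior counts and thresholds, a block for the replicate number, and fits without each mouse.

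The 10 genes and all gene lists were chosen with earlier results of these data known, so no p-value over a list is given. Named genes were all CXC ligands, CXC receptors and atypical receptors, the called gene with the largest rise and fall of each further list, and the 3 genes nearest in profile to Cxcl1, Cxcl2, Cxcl9, Cxcl10 and Cxcl12. Cluster neighbours were named by position, and untested markers, markers rare in controls and Ifng after their values were seen. Replicates differed by more than sampling noise, with chi-square per degree of freedom of 42.4 or more in all 20 pairs.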

Additional observations from a re-analysis of the deposited data

Results flagged for a closer look

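In 40 sets of 5 mice, 1 gene in 1 group each, the highest and lowest mouse were compared with the rest on log2(CPM + 0.1), and 5 sets held a mouse far from the others. Chance alone gives about 1 such set in 20. Cxcl10 was 797.7 CPM in CD95-Ab replicate 4 against 237 to 294 in the other injured livers, and its log2 fold change without that mouse was 6.06. Ackr3 was 8.161 CPM in CD95-Ab replicate 3 against 2.23 to 2.48, with 2.33 without it. Cxcl11 was 3.617 CPM in saline replicate 2 against 1.35 to 1.80 in the other controls, with 3.31 without it. Pf4 was 1.316 CPM in saline replicate 5 against 0.394 to 0.563, with 3.06 without it. Cxcr2 was 1.353 CPM in the same mouse against 0.563 to 0.682, with 3.96 without it.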

How the results depend on the processing

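For 20 CXC genes under 391 alternatives, 380 values kept their direction and call, 11 lost the call (Cxcl13 in 4 and Ackr2 in 7, each with 1 mouse left out) and none changed sign. Called genes numbered 5616 to 6977 with 1 mouse left out. With at least 10 counts required in every mouse, which removes genes silent in controls, 5 of the 10 genes were left to test and all 5 were called, 4 with a log2 rise of at least 2, as were 2 of the other CXC ligands. Genes past both thresholds then numbered 534 higher and 68 lower, against 904 and 152. With no filter they were 1374 and 277, and with a log2 threshold of 1 they were 2144 and 949. Low controls make fold changes depend on the added constant: limma on log2(FPKM + 0.1) gave 7.38 for Cxcl2, 1.995 for Cxcl5 and 3.45 for Cxcl3. With shares of counts in place of TPM, Cxcl1 made up 12.0% of the ligand sum in controls and 30.4% after CD95-Ab, Cxcl12 made up 77.3% and 10.9%, and Cxcl10 1.36% in controls. Replicate numbers did not pair the mice: deviations of same-numbered mice correlated at -0.27 to 0.26, and 2 of 5 mice correlated best with their own number. With the number as a block, 5987 genes and all 10 chemokine genes were called, and the ratios of Cxcl2 to Cxcl1 (4.72), Cxcl9 to Cxcl10 (-3.64) and Cxcl12 to Ackr3 (-3.91) had an adjusted p of 0.0833 in the exact permutation test, since 5 pairs allow no p under 0.0625. Depth limits Cxcl5, Cxcl3 and the rarer receptors, which had few counts in controls.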
